A study of Arabidopsis thaliana with 24 samples.

Results

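Aliphatic glucosinolates are sulphur-rich defence compounds that Arabidopsis thaliana makes from methionine. The 10 genes described here were chosen by name for their known roles in that pathway, with earlier results of these data known. They are 3 transcription factors, 3 enzymes of side-chain elongation and 4 enzymes of the core pathway. All 10 were listed in the files, among 26405 genes listed in at least 1 library. The study grew wild-type plants of the accession Col-0, either diploids or neo-tetraploids, which carry a doubled genome and were taken over from an earlier study. Plants stood for 2 weeks on agar with quarter-strength Hoagland nutrients and sucrose, with 35 mM NaCl or with none, and roots and shoots were sequenced separately. That gives 8 groups of 3 libraries, 24 in all: neo-tetraploid NaCl roots, neo-tetraploid control roots, diploid NaCl roots, diploid control roots and the 4 matching shoot groups. Each library held RNA of pooled plants, the 3 pools of a group came from 1 experiment, and how many tetraploid lines went into them is not given in the sources used here.

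Each library held 11202503 to 11909554 expected counts. Photosynthesis transcripts told the organs apart as labelled: the summed level of 5 shoot markers was 77.1 to 310 FPKM (fragments per kilobase of transcript, scaled to the mapped reads of the library) in roots and 37285 to 45329 FPKM in shoots. The sum of 8 root markers was 409.9 to 802 FPKM in roots and 3.9 to 6.71 FPKM in shoots. None of the 5 shoot markers was at 0 in any root library, and 6 of the 8 root markers were listed at 0 in at least 1 shoot library. In whole organs, fewer cells of a type and less RNA per cell cannot be told apart.

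The pathway runs in 3 stages. BCAT4 removes the amino group of methionine, and the methylthioalkylmalate synthases MAM1 and MAM3 start each round that lengthens the side chain. CYP79F1 and CYP79F2 turn the lengthened amino acids into aldoximes, CYP83A1 oxidises these further, and the sulfotransferase SOT18 adds the sulfate in the last step of the core structure. MYB28, MYB29 and MYB76 are related R2R3-MYB factors that switch the pathway on. MAM1 is known for short side chains and MAM3 for short and long ones. CYP79F1 accepts short- and long-chain substrates, and CYP79F2 only long-chain ones. 3 pairs lie side by side as neighbouring protein-coding genes: MYB29 (AT5G07690) with MYB76 (AT5G07700) and MAM1 (AT5G23010) with MAM3 (AT5G23020) on chromosome 5, and CYP79F2 (AT1G16400) with CYP79F1 (AT1G16410) on chromosome 1. MYB28 is AT5G61420, BCAT4 AT3G19710, CYP83A1 AT4G13770 and SOT18 AT1G74090.

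The clearest pattern in these genes was between organs. Roots used MAM3 and CYP79F2, and shoots used MAM1 and CYP79F1, as the more abundant gene of each tandem pair. MYB29 and MYB76 were shoot transcripts, close to absent from roots, while MYB28, BCAT4 and SOT18 overlapped between the organs.

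**Figure D1:**
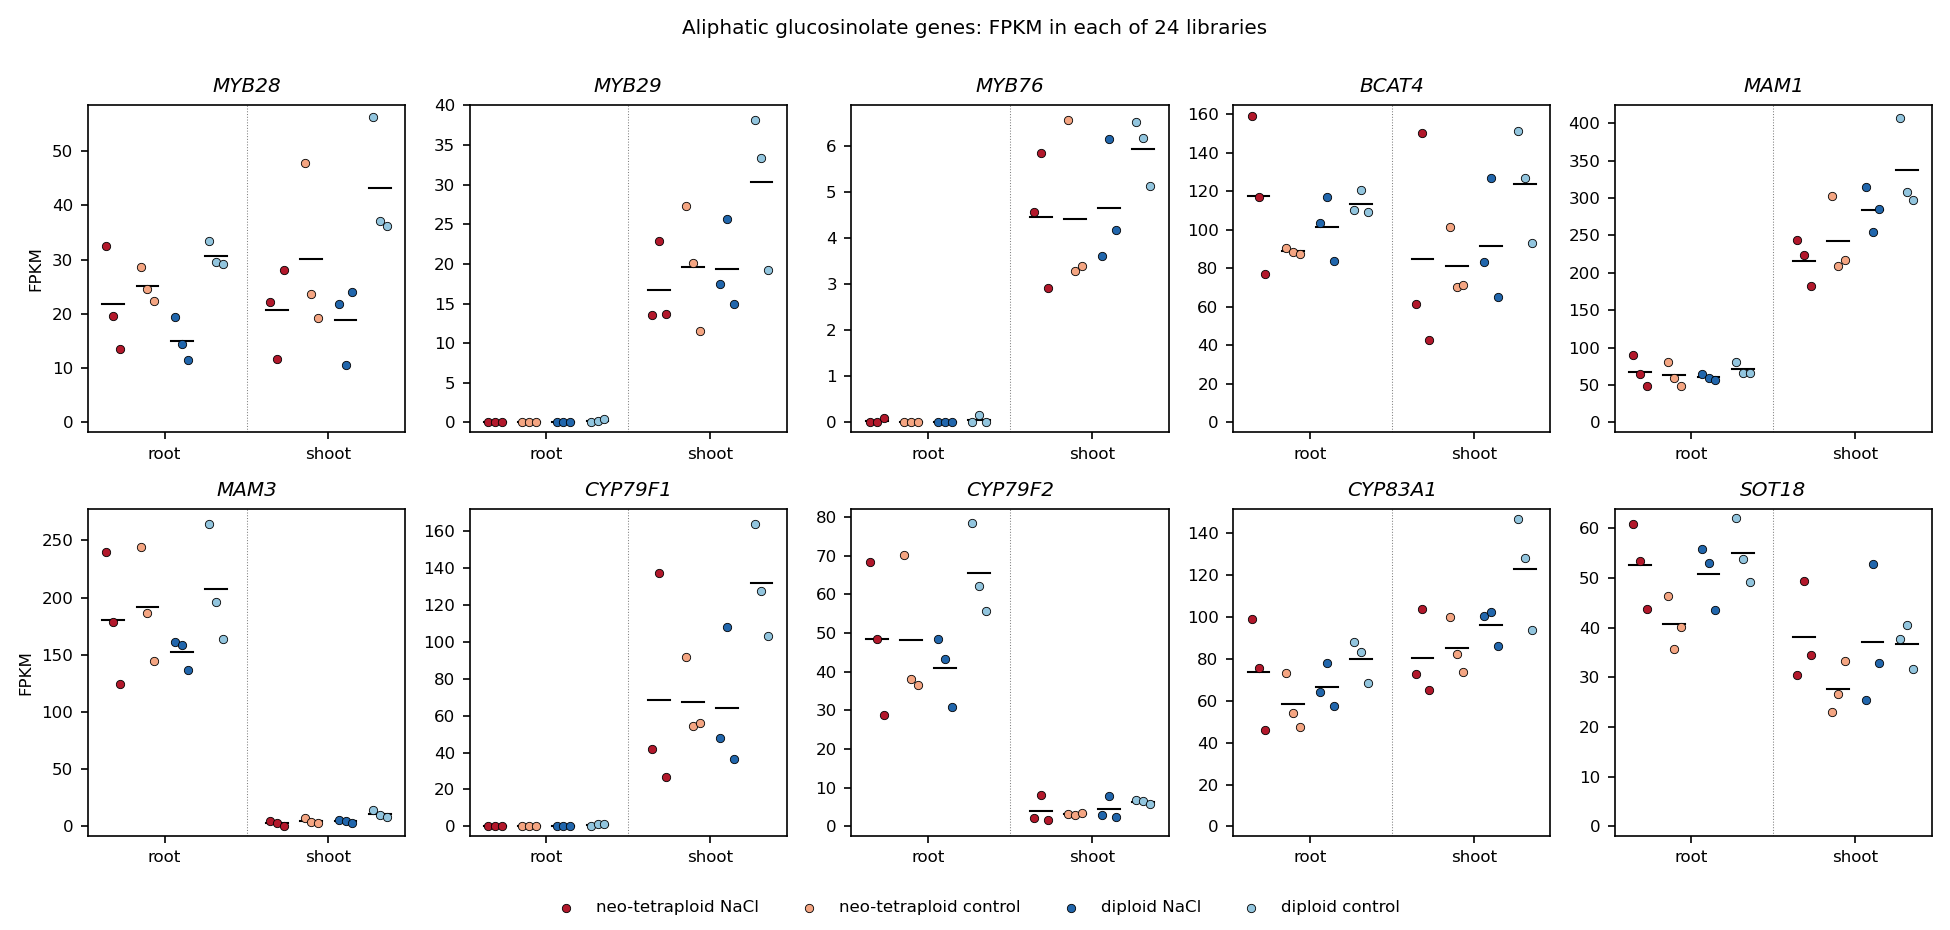
FPKM (linear axis, from 0) of the 10 genes in every library. Points are libraries in replicate order, bars are means of 3, and each panel has roots on the left and shoots on the right. MYB29, MYB76 and CYP79F1 lie on the baseline in all root groups, MAM3 and CYP79F2 are high in roots only, and the 4 groups within an organ mostly overlap.

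Among the regulators, MYB28 was the only one with a sizeable root level. It ranged over 11.5 to 33.5 FPKM in the 12 root libraries, with a median of 23.5, and over 10.6 to 56.3 FPKM in the 12 shoot libraries, with a median of 23.8. These ranges overlap throughout. MYB29 was at 0 to 0.44 FPKM in roots, never above 8 counts in a library, and at 11.5 to 38.2 FPKM in shoots. Summed over 12 libraries each, MYB29 had 17 counts in roots and 4745 in shoots, and its level per total count was 278 times higher in shoots (exact 95% counting interval 174 to 478, for counting error only). MYB76 was at 0 to 0.17 FPKM in roots and at 2.92 to 6.56 FPKM in shoots. With 3 counts over all root libraries against 675 over all shoot libraries, its ratio of shoot over root was 224 (interval 76.5 to 1091). Neither gene had a single count in neo-tetraploid control roots. With a floor of 3 counts over the group, MYB29 was at least 356-fold lower and MYB76 at least 50.4-fold lower there than in neo-tetraploid control shoots.

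MYB29, MYB76 and CYP79F1 in roots amounted to 0.353%, 0.446% and 0.350% of their mean shoot FPKM. The 5 shoot markers lay between 0.309% and 0.942% of their shoot level, and at 0.477% when summed. Whether the few root reads of these 3 genes came from the same source as those of the shoot markers was not tested.

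Of the chain-elongation genes, BCAT4 was expressed about evenly. It ranged over 77.0 to 159 FPKM in roots and over 42.7 to 151 FPKM in shoots. MAM1 was at 48.2 to 89.7 FPKM in roots and at 182 to 407 FPKM in shoots, so that the lowest shoot library stood above the highest root library. MAM1 was the most abundant of the 10 in shoots, where it made up 41.9% of their summed FPKM. MAM3 ran the other way, at 124 to 265 FPKM in roots and 0.72 to 14.5 FPKM in shoots, again with no overlap. It was the most abundant in roots, with 33.4% of the summed FPKM there, and in shoots it varied 20.1-fold between libraries, the widest range of the members that had reads in every library of an organ. Its lowest shoot library held 15 counts.

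Of the core genes, CYP79F1 was at 0 to 1.3 FPKM in roots and at 26.7 to 164 FPKM in shoots. Its root reads were uneven: in diploid control roots 1 library had none and the others 1.3 and 1.1 FPKM, and no other root library passed 0.27 FPKM. CYP79F2 was at 28.9 to 78.3 FPKM in roots and at 1.70 to 8.21 FPKM in shoots. CYP83A1 covered 46.2 to 99.2 FPKM in roots and 65.1 to 147 FPKM in shoots. SOT18 covered 35.8 to 62.1 FPKM in roots and 23.1 to 52.9 FPKM in shoots. Over all libraries of each organ, the last 2 genes thus overlapped. Within single ploidy and NaCl groups, CYP83A1 overlapped only in neo-tetraploid NaCl plants and was otherwise lower in every root library. SOT18 overlapped in the NaCl groups only. In diploid control plants it had 49.2 to 62.1 FPKM in roots, against 31.7 to 40.5 FPKM in shoots. In neo-tetraploid control plants it had 35.8 to 46.4 FPKM in roots, against 23.1 to 33.3 FPKM in shoots.

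The swap within the tandem pairs held in every library. CYP79F1 carried 0 to 2.05% of the FPKM of its pair in the 12 root libraries and 93.2 to 96.7% in the 12 shoot libraries. The pair together ranged over 29.0 to 78.3 FPKM in roots and 28.4 to 171 FPKM in shoots, overlapping between the organs. MAM1 carried 23.4 to 29.4% of its pair in roots and 96.6 to 99.6% in shoots. The MAM pair summed to 173 to 346 FPKM in roots and 182 to 421 FPKM in shoots. MAM3 in shoots stood at 1.47% of its mean root FPKM in neo-tetraploid NaCl plants, 2.42% in neo-tetraploid control plants, 2.89% in diploid NaCl plants and 5.26% in diploid control plants. The highest of the 8 root markers in the same plants stood at 2.78%, 2.29%, 3.72% and 2.27%, so MAM3 lay below that 1 marker in both NaCl groups. Over all plants, the 8 markers had a median of 0.39% and stood at 0.938% when summed, against 3.09% for MAM3. CYP79F2 in shoots was at 6.68 to 10.9% of its mean root FPKM, above the markers in all 4 ploidy and NaCl groups. The part of root tissue in those values was not tested.

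**Figure D2:**
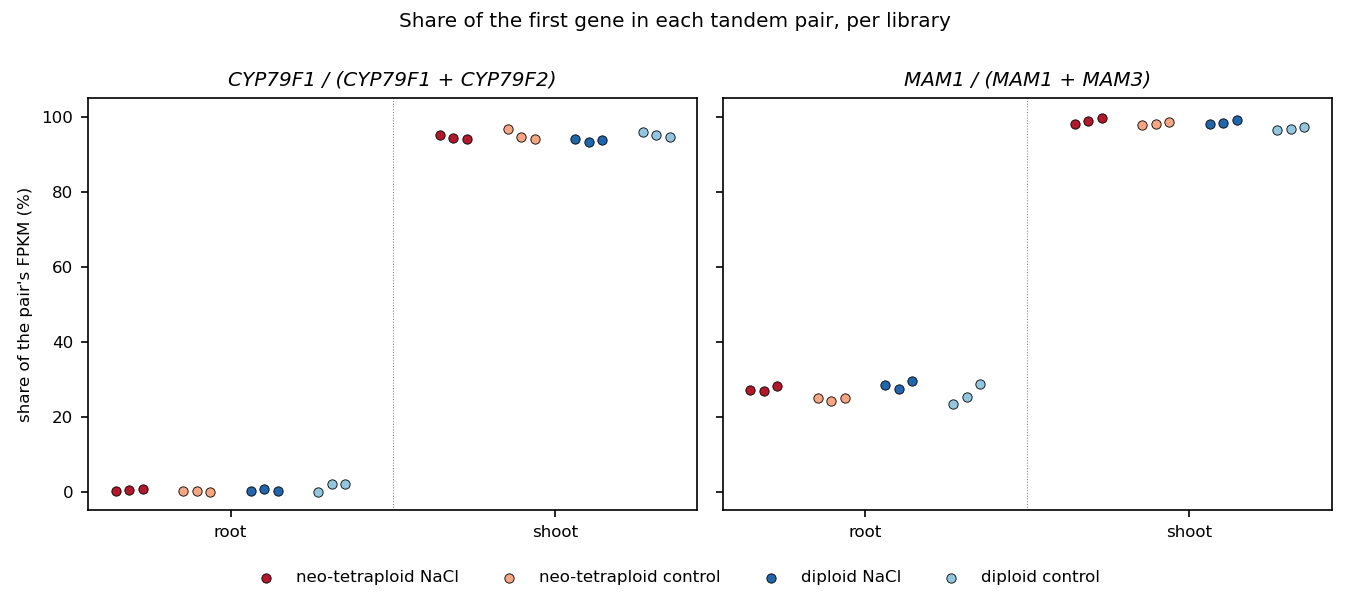
Share of CYP79F1 in the FPKM of CYP79F1 plus CYP79F2 (left) and of MAM1 in that of MAM1 plus MAM3 (right), in percent, 1 point per library. Roots and shoots separate completely in both panels, at 0 to 2.05% against 93.2 to 96.7% and at 23.4 to 29.4% against 96.6 to 99.6%, in every ploidy and NaCl group.

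Some reads of each pair were divided between its genes by the authors' software. Expected counts were fractional in 21 of 24 libraries for CYP79F1 and CYP79F2 and in 15 of 24 for MAM1 and MAM3, and in none for the other 6 genes. A count was taken as fractional when it was more than 0.005 from a whole number. The 2 counts of a pair added up to a whole number (within 0.015 counts) in all 24 libraries. The low member of a pair, such as CYP79F1 in roots, is less certain than the pair's sum.

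The test between organs compared roots with shoots within each ploidy and NaCl group, in 1 model over all 24 libraries and 21338 genes (edgeR quasi-likelihood test). A gene was called when its Benjamini-Hochberg adjusted p over all genes was under 0.05 and its fold change at least 2. In each of the 4 comparisons 2 of 10 members were called higher in roots, MAM3 and CYP79F2. Of all genes, 21.7% were called higher in neo-tetraploid control roots, 22.2% in neo-tetraploid NaCl roots, 22.3% in diploid control roots and 22.3% in diploid NaCl roots. Called lower were 5, 4, 6 and 5 of 10 members in that order, against 22%, 21.6%, 21.2% and 21.6% of all genes. MYB29, MYB76, MAM1 and CYP79F1 were called lower in all 4.

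The log2 fold change of MAM3, root over shoot, was 4.88 ± 0.48 (SE) in neo-tetraploid control plants, 5.58 ± 0.50 in neo-tetraploid NaCl plants, 3.72 ± 0.44 in diploid control plants and 4.41 ± 0.47 in diploid NaCl plants. The highest adjusted p of the 4 was 3.1e-07. For CYP79F2 the values ran from 2.48 to 3.41, with a highest adjusted p of 0.00022. For MAM1 they ran from -2.92 to -2.18, with a highest adjusted p of 2.8e-08. These calls, and those of MYB29, MYB76 and CYP79F1, held under every alternative that was run, each left-out library included. The fitted fold changes of MYB29, MYB76 and CYP79F1 depend on how counts of 0 are treated, and the ratios of summed counts above describe them better.

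CYP83A1 was lower in roots in all 4 comparisons, by 0.64 to 1.22 on the log2 scale, and was called in all but neo-tetraploid NaCl plants (adjusted p = 0.029 at less than 2-fold). Its calls rest on the scaling between organs. When libraries were scaled by their totals alone, the median of all genes moved up by 0.49 to 0.68 in these comparisons and CYP83A1 was called in none. Its call in neo-tetraploid control plants also fell under 2-fold, at -0.99, -0.92 and -0.95, without neo-tetraploid control root replicate 2, root replicate 3 or shoot replicate 1. MYB28 was called lower in roots of diploid control plants only (log2 fold change -1.02 ± 0.35, adjusted p = 0.015). That call was lost with library-size scaling, where the value was -0.49, with limma on FPKM, and with the replicate number as a block, where the value was -0.99 with an adjusted p of 0.0030. It was lost as well without diploid control root replicate 3 (-0.98) or shoot replicate 1 (-0.80). In neo-tetraploid control plants MYB28 passed both thresholds only without shoot replicate 3 (-1.01). In diploid NaCl plants, where it had -0.99 ± 0.36, it passed them with DESeq2 (-1.01) and without root replicate 1 (-1.20) or shoot replicate 2 (-1.26). BCAT4 and SOT18 were called in no comparison, and their sign changed between scalings in some of them. SOT18 in diploid NaCl plants, for example, had a log2 fold change of -0.24 ± 0.23 with TMM and 0.45 with library totals. BCAT4 in neo-tetraploid control plants had -0.36 ± 0.36 and 0.13. With library totals, SOT18 was higher in control roots of both ploidies, at less than 2-fold. Its values were 0.59 in diploids (edgeR, adjusted p = 0.023) and 0.56 in neo-tetraploids (edgeR, adjusted p = 0.032).

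Whether the organ pattern depended on ploidy or NaCl was asked with interaction terms. None of the 10 members was called for organ by ploidy in control plants, where 0% of all genes were called, in NaCl plants, with 0% of all genes, for organ by NaCl in neo-tetraploids, with 0.0562%, or in diploids, with 0.375%. At an unadjusted p under 0.05 there were 1, 1, 0 and 0 of 10 members with edgeR, against 4.26%, 6.71%, 10.9% and 15.8% of all genes, and DESeq2 and limma called none either. The interaction of MAM3 with ploidy was 1.16 ± 0.58 in control plants and 1.16 ± 0.61 in NaCl plants, which stands for a larger gap between root and shoot in neo-tetraploids, with adjusted p-values of 1.0 and 0.77.

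The next question was what genome doubling changed within an organ. In roots 7 of the 10 genes passed the filter of at least 10 counts in at least 3 libraries, and MYB29, MYB76 and CYP79F1 did not. In shoots all 10 passed. No member was called between neo-tetraploids and diploids in any organ or treatment, with the replicate number as a block or without. The block fit called 1.57% of all genes in control roots, 0.474% in NaCl roots, 0.0104% in control shoots and 0.0156% in NaCl shoots. The ploidy values that follow for the members are from the fit without the block. The numbers paired the libraries in every ploidy comparison (r from 0.106 to 0.752). The standard errors and p-values of that fit therefore also hold the deviations that same-numbered libraries share. In that fit 0.993% of all genes were called in control roots, 0.124% in NaCl roots, 0.0104% in control shoots and 0.0104% in NaCl shoots. The members at an unadjusted p under 0.05 numbered 1 of 7, 1 of 7, 2 of 10 and 1 of 10 (edgeR), against 14.6%, 14.9%, 9.08% and 3.89% of all genes, and DESeq2 and limma called none.

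In control roots, the 7 tested genes all had lower point estimates in neo-tetraploids, with a median log2 fold change of -0.30, where the median of all genes was -0.01 and 51.1% of all genes were negative. SOT18 had 46.4, 35.8 and 40.2 FPKM in neo-tetraploid control roots, against 62.1, 53.8 and 49.2 FPKM in diploid control roots. Those groups did not overlap, and its log2 fold change was -0.37 ± 0.14 with an adjusted p of 0.22. BCAT4 had 90.8, 88.6 and 87.5 FPKM in neo-tetraploid control roots, against 110, 121 and 109 FPKM in diploid control roots (-0.30 ± 0.19, adjusted p = 0.53). The BCAT4 groups did not overlap here, and the spread used in the test is shared with the wider NaCl groups. In MAM1 and MAM3 the estimates of -0.12 ± 0.21 and -0.06 ± 0.24 were within their errors. The shoot markers were lower in estimate as well, 5 of 5 with a median log2 fold change of -0.86 and none called, and summed to 77.1 to 138 FPKM in neo-tetraploid control roots, against 143 to 220.2 FPKM in diploid control roots. The mitochondrial share of the counts was 0.604 to 0.629% in neo-tetraploid control roots, against 0.346 to 0.388% in diploid control roots, and the most abundant gene held 5.385 to 5.82%, against 3.32 to 4.295%. The root markers overlapped, at 524 to 624 FPKM in neo-tetraploid control roots and 499 to 802 FPKM in diploid control roots. The part of these values in the members' estimates was not tested. MAM1 turned to 0.03 without neo-tetraploid control root replicate 3, and MAM3 to 0.10 without that library and 0.13 without diploid control root replicate 1. Each of these fits leaves 1 library without its same-numbered partner. In order of replicate number, MAM3 had 244, 186 and 145 FPKM in neo-tetraploid control roots, against 265, 196 and 163 FPKM in diploid control roots. MAM1 had 81.2, 59.1 and 48.2 FPKM, against 81.0, 66.3 and 65.9 FPKM. MAM3 was thus lower in neo-tetraploids for every replicate number.

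In NaCl roots the point estimates of the same 7 genes were all positive, with a median log2 fold change of 0.29 against -0.01 for all genes. MYB28 was the farthest, with 32.5, 19.7 and 13.5 FPKM in neo-tetraploid NaCl roots, against 19.3, 14.4 and 11.5 FPKM in diploid NaCl roots. The libraries overlapped, and the log2 fold change of 0.62 ± 0.25 had an adjusted p of 0.29. The neo-tetraploid NaCl group spread widely: its 3 libraries summed to 749.8, 558.0 and 382.7 FPKM over the 10 genes, against 517.9, 525.3 and 420.9 FPKM in diploid NaCl roots. Without neo-tetraploid NaCl root replicate 1, the estimate of MYB28 was 0.22 and those of the other 6 genes lay between -0.05 (CYP83A1) and 0.07 (MAM3). That fit keeps diploid NaCl root replicate 1, the library with the same number, so it cannot show how far the estimates rest on 1 library. By replicate number, MYB28 was higher in the neo-tetraploid library each time. The summed FPKM was higher there for replicates 1 and 2, with the larger gap at replicate 1, and lower for replicate 3. All 8 root markers had positive estimates too, with a median of 0.42 and none called, and summed to 496 to 661 FPKM in neo-tetraploid NaCl roots, against 409.9 to 470.4 FPKM in diploid NaCl roots. The shoot markers overlapped, at 179 to 296 FPKM in neo-tetraploid NaCl roots and 156 to 310 FPKM in diploid NaCl roots. The part of either marker set in the members' estimates was not tested.

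In control shoots all 10 genes had lower point estimates in neo-tetraploids, with a median log2 fold change of -0.56, where the median of all genes was 0.00. Their summed FPKM was 711.3, 496.7 and 493.0 in neo-tetraploid control shoots, against 1029.2, 825.1 and 693.7 in diploid control shoots, so the highest neo-tetraploid library lay above the lowest diploid one. MAM3 had 7.20, 3.86 and 2.84 FPKM in neo-tetraploid control shoots, against 14.5, 10.1 and 8.26 FPKM in diploid control shoots. The groups did not overlap, and its log2 fold change was -1.23 ± 0.54 (unadjusted p = 0.046, adjusted p = 0.54). CYP79F1 had 91.9, 54.4 and 56.1 FPKM in neo-tetraploid control shoots, against 164, 128 and 103.1 FPKM in diploid control shoots (-0.96 ± 0.61, adjusted p = 0.67). CYP79F2 had 3.12, 3.04 and 3.52 FPKM in neo-tetraploid control shoots, against 6.82, 6.58 and 5.74 FPKM in diploid control shoots (-0.97 ± 0.61, adjusted p = 0.66). MAM1 was the most precisely measured of them, with 303, 209 and 218 FPKM in neo-tetraploid control shoots, against 407, 308 and 297 FPKM in diploid control shoots (-0.46 ± 0.19, unadjusted p = 0.034, adjusted p = 0.52). In NaCl shoots the estimates were smaller, with a median of -0.21, and 8 of 10 were negative. MAM1 was again the most precise, with 243, 223 and 182 FPKM in neo-tetraploid NaCl shoots, against 314, 254 and 285 FPKM in diploid NaCl shoots. Its groups did not overlap there (-0.48 ± 0.19, unadjusted p = 0.028, adjusted p = 0.99).

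**Figure D3:**
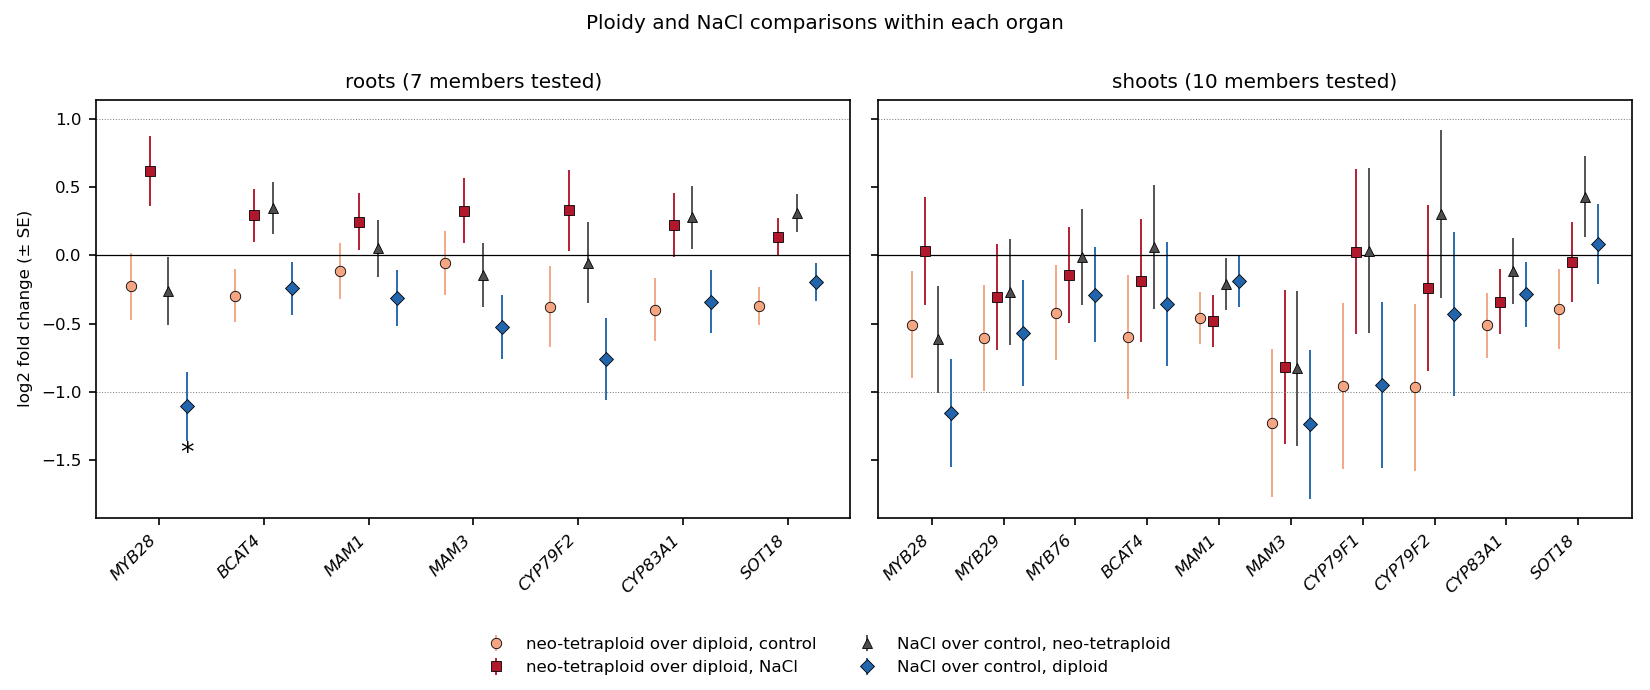
Log2 fold change ± SE (edgeR) of each tested member in the ploidy and NaCl comparisons, for roots (left) and shoots (right). Dotted lines mark a 2-fold change and the star the only call, MYB28 in diploid roots with NaCl (-1.11). In roots the diploid NaCl values are all below 0, and in shoots the control ploidy values are all below 0, mostly within 2 SE.

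Growth on 35 mM NaCl gave the only call among these genes within an organ when replicate numbers were not used. MYB28 fell in diploid roots, to 19.3, 14.4 and 11.5 FPKM in diploid NaCl roots, against 33.5, 29.6 and 29.1 FPKM in diploid control roots. Every NaCl library was below every control library. The means were 15.1 ± 4.0 and 30.7 ± 2.4 FPKM (SD, n = 3 each), and the log2 fold change was -1.11 ± 0.25 (edgeR, adjusted p = 0.018). That is 1 of 7 tested members called lower, where 1.81% of all genes were called lower. The estimate stayed between -1.31 and -0.96 when single libraries were left out, but the call was made in only 3 of these 6 fits: adjusted p was 0.059 without diploid control root replicate 2, 0.066 without diploid NaCl root replicate 2 and 0.060 without diploid NaCl root replicate 3. The 6 other tested genes had negative estimates too. CYP79F2 had 48.4, 43.3 and 30.8 FPKM in diploid NaCl roots, against 78.3, 62.1 and 55.8 FPKM in diploid control roots, without overlap (-0.76 ± 0.30, adjusted p = 0.13). MAM3 had 162, 159 and 136 FPKM in diploid NaCl roots, against 265, 196 and 163 FPKM in diploid control roots (-0.53 ± 0.24, adjusted p = 0.18). The median of the 7 was -0.34, where the median of all genes was 0.02 and 47.6% were negative. The 8 root markers all had negative estimates as well, with a median of -0.63, 3 of them at an adjusted p under 0.05 and none past 2-fold. They summed to 409.9 to 470.4 FPKM in diploid NaCl roots, against 499 to 802 FPKM in diploid control roots. The shoot markers overlapped, at 156 to 310 FPKM in diploid NaCl roots and 143 to 220 FPKM in diploid control roots. The part of either marker set in the members' values was not tested.

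In neo-tetraploid roots MYB28 overlapped between the groups. It had 32.5, 19.7 and 13.5 FPKM in neo-tetraploid NaCl roots, against 28.7, 24.5 and 22.4 FPKM in neo-tetraploid control roots (-0.26 ± 0.25, adjusted p = 0.61). None of 7 members was called, where 2.38% of all genes were, 1 had an unadjusted p under 0.05, against 20.8% of all genes, and their median was 0.05. DESeq2 and limma called none. The 5 shoot markers had positive estimates there (median 1.02, 1 called higher). The root markers overlapped, at 496 to 661 FPKM in neo-tetraploid NaCl roots and 524 to 624 FPKM in neo-tetraploid control roots. The part of either marker set was not tested. That MYB28 was called in diploids only does not show that the ploidies differed. The interaction of ploidy with NaCl in roots was 0.84 ± 0.35 for MYB28, with an unadjusted p of 0.033 and an adjusted p of 0.77. Leaving out single libraries gave 0.45 (without neo-tetraploid NaCl root replicate 1) to 1.10 (without neo-tetraploid NaCl root replicate 3). No member and 0% of all genes were called for this interaction, although its estimates were positive for all 7 members, from 0.36 to 0.84, and 2 of them had an unadjusted p under 0.05, against 6.22% of all genes. In this interaction the estimates were also positive for 7 of the 8 root markers (median 0.31) and 5 of the 5 shoot markers (median 0.80), and their part in it was not tested.

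In shoots, no member was called for NaCl, in diploids with 0% of all genes called and in neo-tetraploids with 0.0104%, and none for the interaction with ploidy, with 0% of all genes. At an unadjusted p under 0.05 there were 2, 0 and 0 of 10 members (edgeR), against 17.6%, 12.4% and 2.91% of all genes. MYB28 had 21.9, 10.6 and 24.01 FPKM in diploid NaCl shoots, against 56.3, 37.1 and 36.3 FPKM in diploid control shoots, with no overlap and a log2 fold change of -1.16 ± 0.40 (adjusted p = 0.19). MAM3 had 5.83, 4.52 and 2.84 FPKM in diploid NaCl shoots, against 14.5, 10.1 and 8.26 FPKM in diploid control shoots, again with no overlap (-1.24 ± 0.54, adjusted p = 0.27). In shoots the replicate numbers paired the libraries, since same-numbered libraries of different groups deviated together. With the number as a block, both genes were called lower: MYB28 at -1.19 ± 0.29 (adjusted p = 0.043) and MAM3 at -1.29 ± 0.28 (adjusted p = 0.030). That makes 2 of 10 members lower with NaCl in diploid shoots, where 1.2% of all genes were called lower in the same fit. MAM3 in diploid NaCl shoots stood at 2.89% of its mean root FPKM, and the highest of the 8 root markers at 3.72%. Over all plants, MAM3 stood at 3.09% and the 8 markers at 0.938% when summed. Those markers summed to 4.54 to 6.47 FPKM in diploid NaCl shoots, against 4.96 to 5.64 FPKM in diploid control shoots. The part of root tissue in the MAM3 values was not tested. The same diploid control shoots are the reference of the ploidy comparison above, so the MAM3 values of both comparisons share 3 libraries. MYB28 in neo-tetraploid NaCl shoots, at 22.2, 11.6 and 28.2 FPKM, overlapped neo-tetraploid control shoots, at 47.8, 23.6 and 19.2 FPKM (-0.62 ± 0.39, adjusted p = 0.54).

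Much of the spread between libraries was shared by the members. In roots all 21 pairs of the 7 tested genes correlated positively over the 12 libraries (log2 CPM, counts scaled to library size, Pearson r from 0.435 to 0.924, median 0.759), and MAM1 with MAM3 was the closest pair. In all 4 root groups replicate 1 had the highest level of most genes, in 25 of the 28 gene and group combinations, and replicate 3 the lowest, in 27 of 28. In shoots the median r over 45 pairs was 0.706, and BCAT4 with CYP79F1 was the closest pair at 0.962. MYB28 stood apart in shoots: its r with the other 9 ran from -0.562 to 0.513 with a median of 0.152, while in roots its median was 0.674. These correlations describe libraries that share replicate numbers and groups, and are not tests. They hold differences between groups as well as the spread within them. Over all tested genes, same-numbered libraries also deviated together from their group means. The mean r was 0.21 over 18 root pairs and 0.37 over 18 shoot pairs. Whether the replicate order is particular to the members was not tested.

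The shoots on NaCl show the shared spread and the separate course of MYB28 most plainly. CYP79F1 had 41.7, 137 and 26.7 FPKM in neo-tetraploid NaCl shoots and 48.0, 108 and 36.5 FPKM in diploid NaCl shoots, in order of replicate number. The library of replicate 2 was the highest in both ploidies, as it was for 7 of 10 members in each. MYB28 was lowest in those same libraries, at 11.6 FPKM in neo-tetraploids and 10.6 FPKM in diploids.

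**Figure D4:**
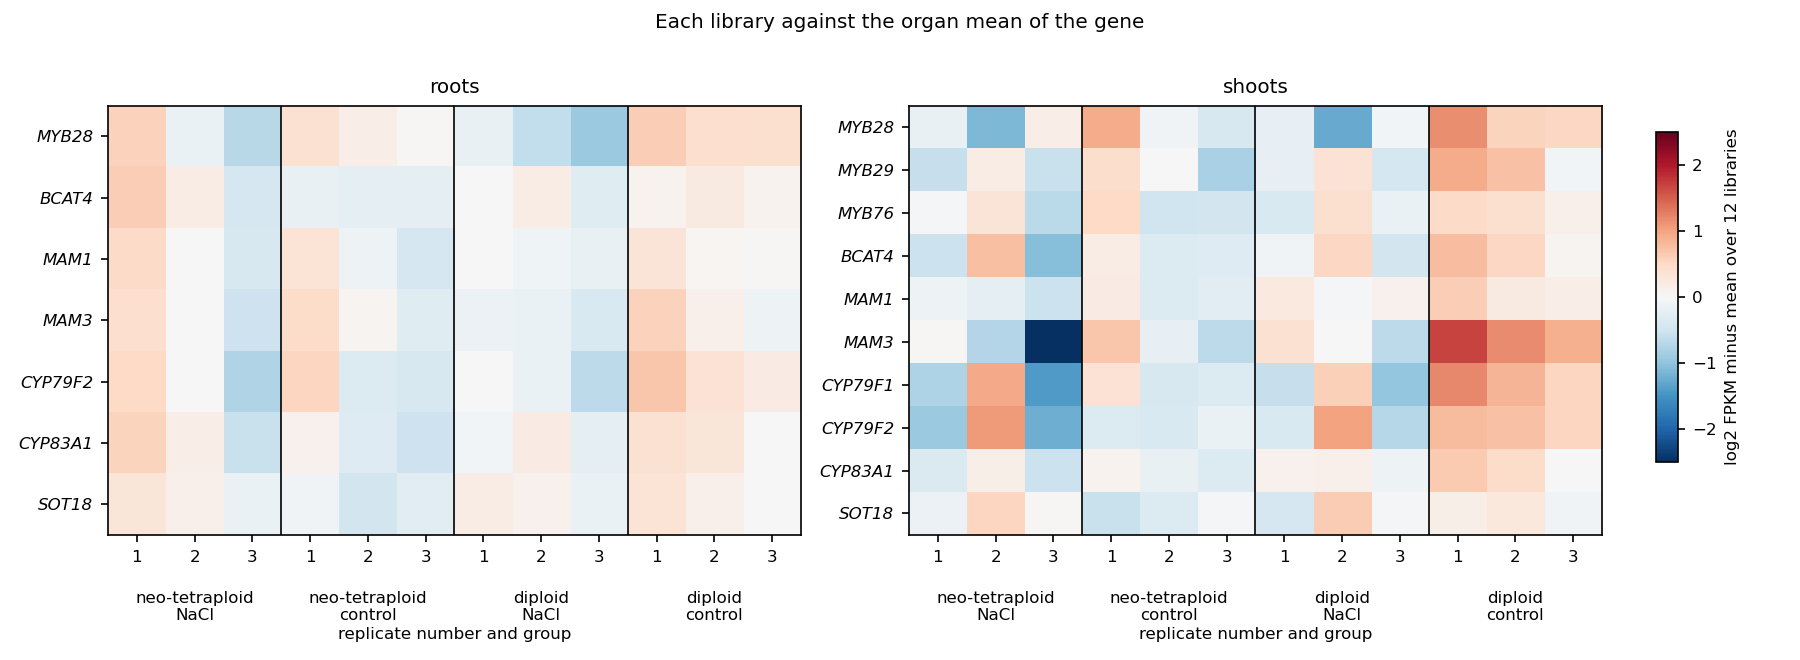
Log2 FPKM of each tested member in each library, minus the gene's mean over the 12 libraries of the organ (red above, blue below), for roots (left) and shoots (right). In roots replicate 3 is the lowest of its group in 27 of 28 cases. In shoots on NaCl, replicate 2 is red for CYP79F1 and CYP79F2 and blue for MYB28 in both ploidies.

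The other genes of the pathway were described by lists made from their known roles, also with earlier results of these data known. Chain elongation had 7 further genes, the core structure 7, side-chain modification 8 of 9 listed in the files, glucosinolate transport 3, sulfate activation 2, other regulators 7, breakdown 11 and the parallel indole branch, which starts from tryptophan, 13. Of all 21338 genes, 17.5% were called higher and 17.6% lower in roots in all 4 root over shoot comparisons. By the same count, 1 of 7 chain-elongation genes and 1 of 7 core genes were lower, and neither of the sulfate-activation genes was called in all 4. Of the 10 breakdown genes tested, 6 were called higher and the other 4 lower in roots in all 4 comparisons. The myrosinases, which cleave glucosinolates, split by gene, with TGG1 and TGG2 lower and TGG4 and TGG5 higher in roots. Of the side-chain genes, 1 of 7 tested was higher and 3 were lower in roots. The flavin monooxygenases that oxidise the sulphur of the side chain split by gene. FMO GS-OX4 was higher in roots, with log2 fold changes of 2.25 to 3.45, while FMO GS-OX1 (-5.41 to -4.16) and FMO GS-OX3 (-3.52 to -2.73) were lower. FMO GS-OX5 was called higher in 2 of the comparisons and FMO GS-OX2 in 1. The transporters split too, with GTR3 higher and GTR1 lower in roots. Regulators had 1 of 7 lower, MYC2, and the indole branch 2 of 13 higher and 1 lower. These organ calls of pathway genes were made with TMM and were not checked under the alternatives. With library totals the median of all genes moved up by 0.49 to 0.68. Calls lower in roots near 2-fold, such as BCAT3 (-1.68 to -1.01) and GTR1 (-2.82 to -1.25), are therefore less certain. The genes named in this paragraph were chosen after their values were seen. The 4 comparisons share no libraries.

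**Figure D5:**
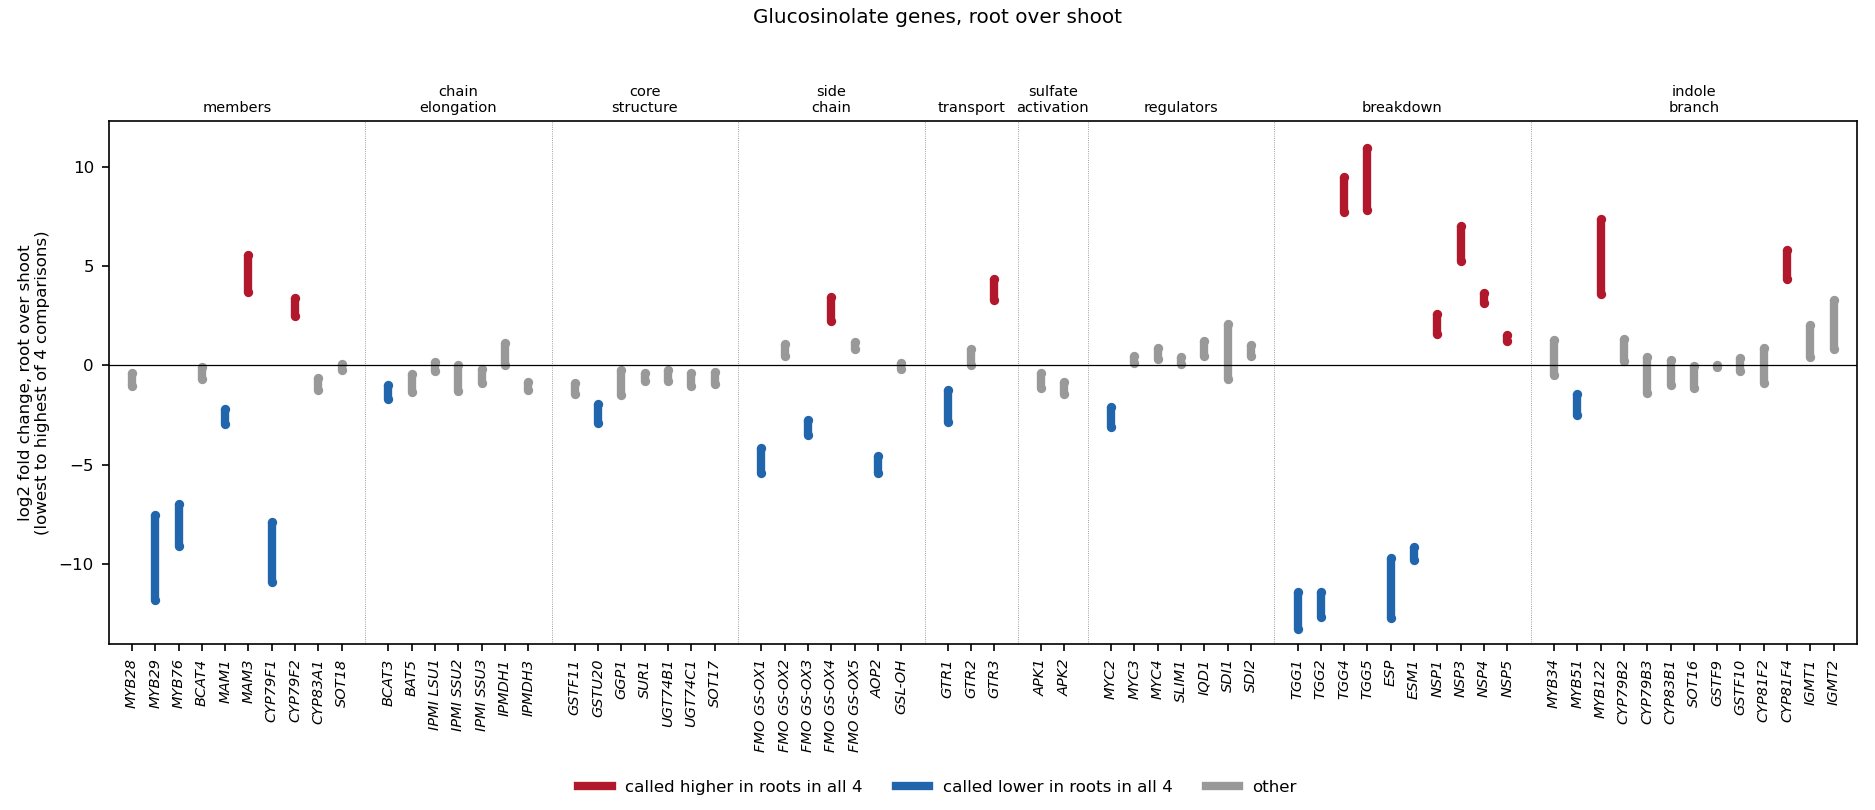
Root over shoot log2 fold change of the 10 members and of 8 lists of pathway genes, drawn from the lowest to the highest of the 4 ploidy and NaCl groups (positive means higher in roots). Red genes were called higher and blue ones lower in all 4. Breakdown genes are coloured throughout, and most core and chain-elongation genes are grey. With TMM scaling all 7 core genes lay below 0 in all 4 groups (-2.90 to -0.23). In mean FPKM, SUR1 (79.7 in roots, 79.4 in shoots) and UGT74B1 (45.9 and 45.7) were level, and the other core genes were lower in roots. The direction of the level genes thus depends on the scaling. The fitted values farthest from 0 rest on counts close to 0 in 1 organ.

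The 7 further chain-elongation genes, which complete the rounds that MAM1 and MAM3 start, had none called within an organ. Their median log2 fold change for neo-tetraploids over diploids was -0.37 in control roots, with 7 of 7 negative, 0.39 in NaCl roots, with 6 of 7 positive, -0.47 in control shoots and -0.29 in NaCl shoots, with 7 of 7 negative in each. For NaCl over control their median was -0.33 in diploid roots, 0.17 in neo-tetraploid roots, -0.33 in diploid shoots and -0.21 in neo-tetraploid shoots. The 7 core genes had medians of -0.23 in control roots and 0.12 in NaCl roots by ploidy, and of -0.41 in diploid roots and -0.0046 in neo-tetraploid roots with NaCl, again with none called. In shoots their medians were -0.31 in control shoots and -0.09 in NaCl shoots by ploidy. With NaCl they were -0.12 in diploid shoots and 0.34 in neo-tetraploid shoots, where 6 of 7 were positive. The medians of all genes in these comparisons lay between -0.0087 (ploidy in NaCl roots) and 0.017 (NaCl in diploid roots), with 47.6 to 51.4% of all genes negative. At most 2.82% of all genes were called in any of them (NaCl in diploid roots), and at most 0.0104% in shoots. With 7 genes per list, none called is near that share.

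By ploidy or NaCl, 2 genes of these lists were called within an organ in the fit without the block. Of all genes, that fit called 2.82% for NaCl in diploid roots and 2.38% in neo-tetraploid roots. By ploidy it called 0.993% in control roots and 0.124% in NaCl roots, and no shoot comparison passed 0.0104%. NSP3, a nitrile-specifier protein that steers glucosinolate breakdown towards nitriles, fell with NaCl in roots of both ploidies. It had 34.3, 32.2 and 25.2 FPKM in neo-tetraploid NaCl roots, against 87.8, 81.9 and 74.4 FPKM in neo-tetraploid control roots (-1.47 ± 0.14, adjusted p = 0.00017). It had 22.3, 24.7 and 30.5 FPKM in diploid NaCl roots, against 62.0, 63.8 and 63.1 FPKM in diploid control roots (-1.36 ± 0.14, adjusted p = 0.00027). Neither pair of groups overlapped, and both calls held under every alternative and left-out library. The interaction with ploidy was -0.11 ± 0.19 (adjusted p = 0.96). NSP3 had fractional counts in 23 of 24 libraries and its relatives NSP1 and NSP4 in all 24, so its level is less certain than that of a gene whose reads are all its own. The 6 other breakdown genes tested in roots were not called.

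IGMT2, a methyltransferase of the indole branch, fell with NaCl in neo-tetraploid roots. It had 49.7, 31.0 and 45.6 FPKM in neo-tetraploid NaCl roots, against 140, 140 and 151 FPKM in neo-tetraploid control roots (-1.82 ± 0.46, adjusted p = 0.035). The call was lost when any 1 of the 6 libraries was left out, with adjusted p from 0.070 to 0.16. In diploid NaCl roots it had 102, 20.5 and 22.4 FPKM, against 71.4, 92.6 and 92.4 FPKM in diploid control roots (-0.91 ± 0.46, adjusted p = 0.23). Its counts were fractional in all 24 libraries, as were those of its near-copy IGMT1.

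With the replicate block, where the numbers paired the libraries, 5 further pathway genes were called. Of all genes, the block fit called 1.57% by ploidy in control roots, 3.17% for NaCl in neo-tetraploid roots, 0.0156% by ploidy in NaCl shoots, 0.954% for NaCl in neo-tetraploid shoots and 2.25% for NaCl in diploid shoots. MYB51, a regulator of the indole branch, was higher in neo-tetraploid control roots, with 25.3, 32.5 and 38.5 FPKM there and 7.64, 8.89 and 8.82 FPKM in diploid control roots (1.99 ± 0.53 with the block, adjusted p = 0.045, and 1.98 ± 0.57 without, adjusted p = 0.10). CYP81F2, an indole-branch hydroxylase, was lower in neo-tetraploid NaCl roots than in their controls (-2.14 ± 0.63, adjusted p = 0.045, and 0.12 without the block). ESM1, which favours isothiocyanates over nitriles, was higher in neo-tetraploid NaCl shoots, with 380, 368 and 507 FPKM there and 104, 141 and 159 FPKM in diploid NaCl shoots (1.55 ± 0.15, adjusted p = 0.015, and 0.11 without). ESP, the epithiospecifier protein, was higher with NaCl in shoots of neo-tetraploids (1.19 ± 0.14, adjusted p = 0.0099, and 0.16 without) and of diploids (1.33 ± 0.14, adjusted p = 0.0052, and 0.088 without). GTR1, a glucosinolate transporter, was higher with NaCl in diploid shoots (1.25 ± 0.32, adjusted p = 0.049, and 0.17 without). None of these 5 belongs to the 10 biosynthetic genes.

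The genes whose levels followed the members most closely were looked up in each organ, by Pearson r with the mean scaled profile of the tested members over 12 libraries. In roots the top 5 were AT4G26130 (r = 0.959), RFNR1 (0.953), a ferredoxin-NADP reductase of roots, GSTF11 (0.953), a glutathione transferase that was already on the core-structure list, SIR (0.9504), the sulfite reductase of sulfate assimilation, and AT4G34760 (0.941). In shoots they were SBP2 (0.958), a selenium-binding protein, AT3G44450 (0.951), FLS1 (0.948), a flavonol synthase, AT1G44835 (0.947) and GAUT1 (0.946), a cell-wall galacturonosyltransferase. No gene was in the top 5 of both organs. The r values are given with no test, since the libraries share groups and replicate numbers.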

How the data were processed

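Messenger RNA of roots and shoots was sequenced in 24 libraries, 8 groups of 3. Reads were filtered, mapped to TAIR10 with HISAT and Bowtie2 and quantified with RSEM by the sequencing provider (per the study's methods and notes; versions not given in the sources used here). The deposited files hold, per library, the expected counts of each gene with reads, and the authors' FPKM values, which scale these by transcript length and library total. Genes not listed in a library were set to 0.

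Expected counts were rounded and tested with edgeR 4.0.16 in R 4.3.3 (TMM, quasi-likelihood F test, Benjamini-Hochberg over all genes tested): 20239 genes in 12 root libraries, 19174 in 12 shoot libraries and 21338 in all 24, after a filter of at least 10 counts in at least 3 libraries. Genes at an adjusted p below 0.05 that differed 2-fold or more were called. Standard errors are the log2 fold change divided by the square root of F. The script was tested on simulated data. FPKM values are given as levels. The study's own test (NOISeq) was not run.

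Alternatives were DESeq2 1.42.0, library-size scaling, no filter, limma 3.58.1 on log2(FPKM + 1) and log2(FPKM + 0.1), no fold threshold, the replicate number as a block, and each library left out. Libraries of a group differed beyond sampling noise. The replicates of a group are pools of plants from 1 experiment, so p-values measure only the spread between such pools. Deviations of same-numbered libraries correlated at 0.145 to 0.752 over the 18 shoot pairs, all over 0.1, so the numbers were taken to pair shoot libraries. By the same limit they were taken to pair the root libraries for ploidy and for NaCl in neo-tetraploids (r from 0.106 to 0.439). NaCl in diploid roots fell short of the limit in 1 pair (r from 0.087 to 0.317 over 3 pairs). Between organs only diploid control plants passed it.

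The members and lists were chosen with earlier results of these data known. Named were all 10 members, every other pathway gene called by ploidy or NaCl, and 5 similar genes per organ. Pathway genes named between organs were chosen after their values were seen. AOP2 was matched by the identifier AT4G03060.1, and AOP3 was not analysed here. Gene names and neighbours come from RefSeq's TAIR10.1 table. No sequence or coordinate was used, and a planned motif search was not run. Intervals cover counting error only. MYB29, MYB76 and CYP79F1 fell under the filter in roots and were not tested within that organ.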

Additional observations from a re-analysis of the deposited data

How the results depend on the processing

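The numbers of members called by organ, ploidy and NaCl stayed within 1.5 times of those given under DESeq2, library-size scaling, no filter, limma with either pseudocount and no fold threshold. In diploid shoots with NaCl the replicate block gave 2 calls, against 0 without it. In diploid roots with NaCl, leaving out 1 library gave 0 to 1 calls, with 0 without diploid control root replicate 2, diploid NaCl root replicate 2 or diploid NaCl root replicate 3. MYB28 there was -1.14 with the block (adjusted p = 0.00055). In that comparison 1 of 3 same-numbered pairs, at r = 0.087, fell short of the limit of 0.1 taken for pairing. Between organs the block ended the MYB28 call in diploid control plants, and it changed no other call of a member. Over all genes, the block moved the calls to 317 against 201 without it for ploidy in control roots, to 96 against 25 in NaCl roots, to 431 against 0 for NaCl in diploid shoots and to 183 against 2 in neo-tetraploid shoots. Of the values of single members, 1321 with 1 library left out stayed on their side of the threshold, 3 passed it and 8 no longer did. Under the other settings 1137 stayed, 5 passed it and 13 no longer did, all 13 of them CYP83A1 or MYB28 between organs. None that was called changed direction. Levels near 0 in roots are limited by depth, with at most 8 counts of MYB29 in a library.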
